A study of Aspergillus nidulans with 6 samples.

Results

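The comparison described here is between strains, after salt. Of the 6 RNA-seq libraries of the filamentous fungus *Aspergillus nidulans*, the 3 made from salt-treated cultures were compared. They came from the parent TN02A7, from WSA08 (Δ*cnaB*) and from LXA05 (Δ*cnaB*Δ*cchA*), with 1 library per strain. The question was which transcripts stood at other levels in strains without *cnaB* once salt had acted for 30 min. The parent carries pyrG89, riboB2, pyroA4, nkuA::argB2 and veA1. In WSA08 *cnaB* is replaced by *pyrG* in that background. In LXA05 both *cnaB* and *cchA* are replaced by *pyrG*, with nkuA::argB2 and veA1 listed again, while riboB2 and pyroA4 do not appear in its listed genotype. All 3 strains therefore share the disrupted *nkuA* gene and the veA1 allele, a *veA* allele that lowers the light response of development. Both deletion strains carry *pyrG* in place of *cnaB*, while the parent lists pyrG89 alone. Loss of *cnaB* and gain of *pyrG* therefore cannot be told apart in these comparisons. Cultures grew for 18 h at 37°C in shaken liquid minimal medium with glucose, uridine and uracil, and NaCl was then added to 800 mM. The other 3 libraries, of the same strains without salt, are used only to ask whether a difference was also present there.

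Calcineurin is a phosphatase that is switched on by calcium and calmodulin. CnaB is its regulatory subunit, without which the catalytic subunit is not active, and its best-known target in fungi is the transcription factor CrzA, which enters the nucleus after dephosphorylation and turns on genes for calcium and cation transport and for the cell wall. CchA is a calcium channel of the plasma membrane, through which calcium enters under stress.

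The deposited values are RPM (reads per 1000000, after a trimmed mean of M values, TMM) that the authors scaled in pairs of one strain. The 3 salt libraries were therefore rescaled together by TMM, and levels are given as rescaled RPM. The 3 control libraries were rescaled apart from them, so levels with and without salt were not put on one scale. Where 3 levels follow each other, the first is of the parent, the next of Δ*cnaB* and the last of the double deletion strain. Deposited values under 1 are listed as 0. A limit of listing of 0.971 rescaled RPM was therefore set for all 3 salt libraries. Lower values were raised to it before a ratio was taken. A difference that involves the limit is a lower bound. A gene was called when the log2 difference from the parent was over 1 in the same direction in both deletion strains. Both differences share the 1 parent library, so they are not 2 independent measurements, and no difference from the parent has a replicate check in the parent.

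The deleted genes matched the labels. *cnaB* (AN6566) was at 60.3 rescaled RPM in the parent, while both deletion strains were listed at 0, at least 62.1-fold lower. *cchA* (AN1168, RefSeq symbol cch1) was at 111 in the parent, 105 in Δ*cnaB*, with 3.85 in the double deletion strain, so it was 28.9-fold lower in the double deletion strain alone. The labels name conidia as the source, although the cultures had grown for 18 h. Of 8 conidium markers found in the files, 5 to 6 were above the limit in each salt library, with summed levels from 263 to 274, and the spore wall gene *dewA* was at the limit in all 3. All 3 hyphal markers found were above the limit, with sums from 144 to 172. In bulk RNA, fewer cells of a type and less RNA per cell cannot be told apart. Recovered reads numbered 42033846 to 48597615 per salt library.

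More genes were above the parent than below it. Of 8797 genes tested, 599 (6.81%) were higher in both deletion strains and 238 (2.71%) were lower. Counted whatever the other deletion strain showed, 832 genes (9.46%) were higher and 444 (5.05%) lower in Δ*cnaB*. In Δ*cnaB*Δ*cchA* 835 (9.49%) were higher and 320 (3.64%) lower. The counts per strain include the genes called in both. The median log2 difference was 1.68 among the 599 higher genes and -1.57 among the 238 lower genes, against 0.00 over all genes. This balance depends on the scaling. Higher genes made up 71.6% of the calls after TMM, but 45.1% after scaling by library totals (414 higher, 503 lower) and 48.0% with the values as deposited (433 higher, 470 lower). Under library totals the median of all genes moved to -0.28 in Δ*cnaB* and -0.24 in the double deletion strain. The 599 genes together held 4.44% of all rescaled values in the parent, 15% in Δ*cnaB*, with 13.0% in the double deletion strain. The 238 lower genes held 1.87%, 0.424% and 0.504%.

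**Figure D1:**
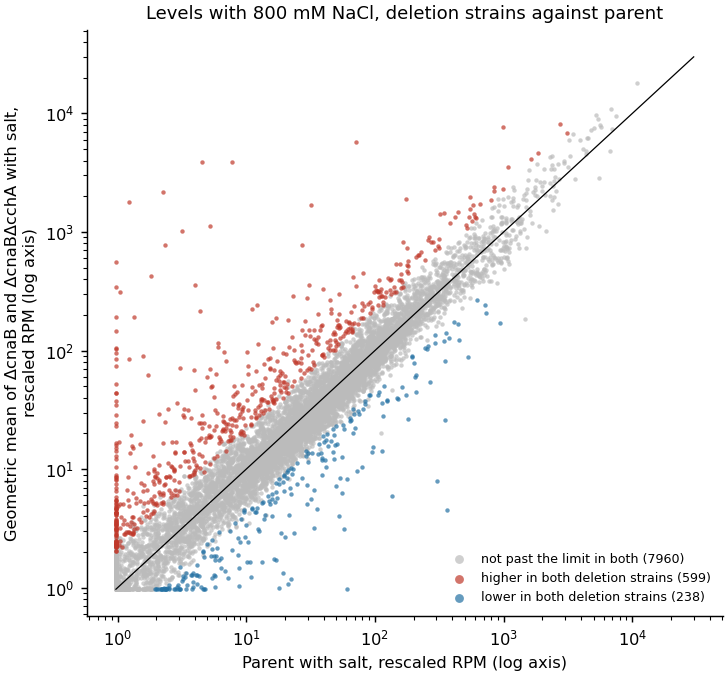
Level of each gene with 800 mM NaCl in the parent (x axis) against the geometric mean of the 2 deletion strains (y axis), both in rescaled RPM on log axes, with values under the limit of listing drawn at it. Red points are the 599 genes higher and blue points the 238 genes lower in both deletion strains, grey points all others, and the line marks equal levels. Among the red points that lie highest above the line are AN0528, AN8366 and AN8308, with parent levels from 1.24 to 4.51.

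A test was possible only with the 2 strains that lack *cnaB* taken as one group, which counts the loss of *cchA* as spread and assumes that the lone parent library varies like them. With limma on the 3 libraries (1 residual degree of freedom, moderated across genes), 665 of 8185 genes (8.12%) were higher and 285 (3.48%) lower at a Benjamini-Hochberg adjusted p under 0.05. Of the 509 higher genes above the limit in all 3 libraries, 426 passed, and of the 185 such lower genes, 143 passed. Over all 6 libraries in 4 groups, limma called 448 of 7798 genes higher (5.75%) and 188 lower (2.41%) with salt. The p-values rest on the gap between the 2 strains that lack *cnaB*, moderated across genes, with no spread from the parent. Without the filter on low values no gene passed in either direction, although 1355 higher and 1059 lower genes of 8797 had an unadjusted p under 0.05. That fit took in 96 genes whose values in both deletion strains were set to the same limit.

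Among genes above the limit of listing in all 3 libraries, parent included, those farthest above the parent were almost silent in it and among the strongly expressed genes of the deletion strains. The files and the reference give most of them no name. AN0528 had a parent level of 1.24 rescaled RPM, against 2207 in Δ*cnaB* and 1461 in the double deletion strain. The log2 difference was 10.80 in Δ*cnaB* (95% exact binomial interval 10.46 to 11.17) and 10.21 in the double deletion strain (9.86 to 10.57). These intervals cover counting error alone and rest on reads recovered from the steps of the values, of which there are more than the study states as sequenced. AN8366 stood at 2.25 in the parent against 2438 and 1965, 1082-fold and 872-fold higher. For AN8308 the levels were 4.51, 4539 and 3354, or 1007-fold and 744-fold. Both deletion strains lay far above the parent for all 3 genes, and close to each other. The limma adjusted p was 8.9e-05 for AN0528 and 6.5e-05 for AN8366 and AN8308.

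The next genes of this ranking were AN7895 (7.82 in the parent, 4426 in Δ*cnaB*, 3437 in Δ*cnaB*Δ*cchA*), AN11584 (2.33, 867 and 689) and AN7893 (3.16, 1211 and 846). AN7899, AN7897, AN7894 and AN7333 completed the first 10, with parent levels from 0.982 to 5.25 and log2 differences from 7.47 to 8.56. Of these 10 genes, 5 belong to one stretch of neighbouring gene numbers. The 10 remained called under library totals, median of ratios and deposited values. In 90 of the 599 genes the parent was at the limit. Among them AN7898 was listed at 0 in the parent and reached 658 in Δ*cnaB* and 475 in the double deletion strain, at least 677-fold and 489-fold higher. AN0531 was listed at 0 in the parent too, with 430 and 273. AN3339 had 116 and 80.0 against 0.

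Higher genes lay next to each other. Of 565 higher genes that could be placed in the RefSeq order, 248 (43.9%) had a higher gene as a direct neighbour, while 12.6% of all 8309 placed genes did. Runs of at least 4 called genes with consecutive numbers, allowing 1 number to be missing between members, were found at 9 places. Fungal genes for one secondary metabolite commonly sit side by side and are switched together. The 3 runs described first held 6 of the 10 genes ranked above.

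The longest run reached from AN7891 to AN7904, where 13 of 14 genes were higher. Their levels summed to 38.1 rescaled RPM for the parent, 8962 in Δ*cnaB* and 6973 in the double deletion strain, and the median log2 difference was 7.16. The levels of single members differed widely within a strain. AN7895 took the largest share, AN7897 stood at 1.84, 408 and 443, and AN7902 at 1.35, 186 and 199. AN7903 was under the limit in the parent at 0.836, with 109 and 103, and AN7900 and AN7901 were listed at 0 there with 78.4 and 46.4 in Δ*cnaB*. At its ends the run faded. AN7891 rose from 9.49 to 32.2 and 35.0, and AN7904 from 5.78 to 24.9 and 21.7. AN7892, the member that was not called, lies inside the run. Apart from these end genes, the log2 difference of the called members in Δ*cnaB* was 5.58 or more. All 13 members were also higher in both deletion strains without salt.

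The genes AN7893, AN7902 and AN7903 of this run were chosen by the study for PCR measurement. Their primers are the only sequences at hand for the run, and are shown since they identify what the study's PCR measured.
AN7893 forward: gattcctgagcctcgtag
AN7893 reverse: taatgaagcactccttggta
AN7902 forward: tacaagtcgccatcatagg
AN7902 reverse: atccatcgcagatagtcatt
AN7903 forward: gcctgcgactatgagaata
AN7903 reverse: cacctctacagtagccatc

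Just below it in number, 10 of the 11 genes from AN7872 to AN7883 were higher, with sums of 61.0, 2445 and 1623. Most of the sum came from AN7877, which was at 32.1 in the parent, 2022 in Δ*cnaB*, with 1406 in the double deletion strain. AN7875, AN7876 and AN7879 were listed at 0 in the parent and had 32.9, 44.5 and 57.6 in Δ*cnaB*. In this run the double deletion strain was below Δ*cnaB* at each called member, for example 8.41 against 32.9 at AN7875 and 15.5 against 52.5 at AN7883. AN7872 at the edge passed narrowly (9.11, 23.8 and 18.7) and was no longer called under library totals or deposited values. Between both runs AN7885, AN7886 and AN7887 were listed at 0 in all 3 libraries.

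**Figure D2:**
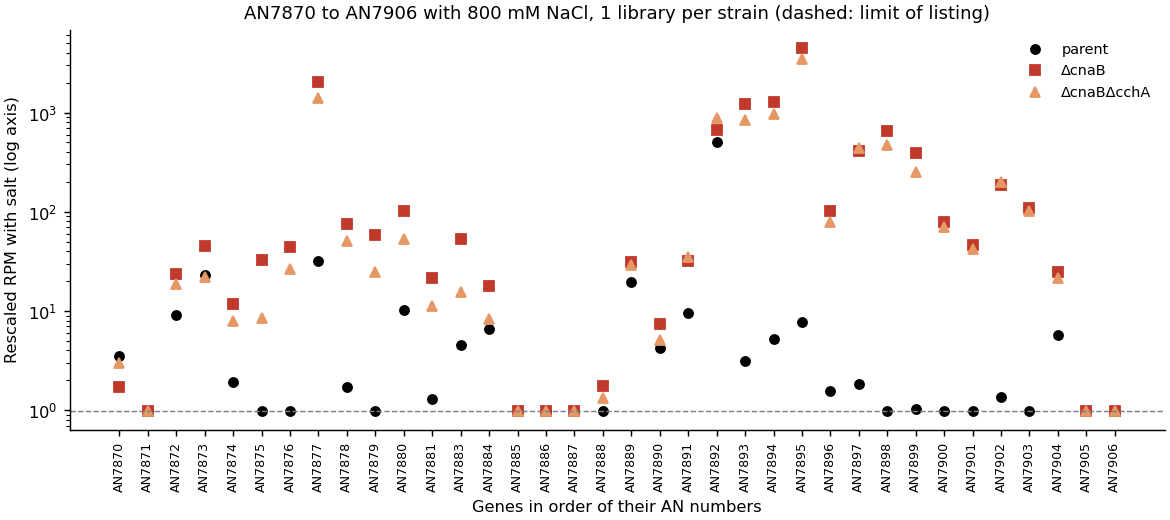
Rescaled RPM with 800 mM NaCl (log axis) of each gene listed from AN7870 to AN7906, in order of their numbers, with 1 library per strain (black circles parent, red squares Δ*cnaB*, orange triangles Δ*cnaB*Δ*cchA*). Values under the limit of listing are drawn on the dashed line. The deletion strains stand far above the parent over 2 stretches, while AN7885, AN7886 and AN7887 between them lie at the limit.

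The 5 genes from AN0528 to AN0532 were all higher. The parent was listed at 0 for 4 of them and summed to 1.24, against 2764 in Δ*cnaB* and 1836 in the double deletion strain. Besides AN0528 and AN0531, AN0529 had 104 and 67.9, AN0530 17.9 and 30.1, and AN0532 4.96 and 3.70. All 5 were also higher without salt. The other runs were smaller in effect. AN1714 to AN1719 (5 of 6 genes) had sums of 170, 525 and 555, AN0394 to AN0400 (5 of 7) of 46.7, 264 and 175, and AN7385 to AN7390 (4 of 6) of 105, 594 and 466. AN6930 to AN6933 (4 of 4) had sums of 86.1, 248 and 215. In 2 short runs 1 of 4 members was also called without salt. In AN2469 to AN2472 the sums were 160, 651 and 393, and AN2469 went from listed at 0 to 87.5 and 30.8. In AN7987 to AN7990 they were 294, 886 and 624. Across all 9 runs 46 of 54 members stayed called under library totals and under deposited values, and 54 under median of ratios.

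Of 759 tested genes with a RefSeq symbol 18 (2.37%) were higher, against 6.81% of all genes. *nopA* (AN3361), whose symbol is that of a fungal opsin, was the most abundant, at 1081 in the parent, 3775 in Δ*cnaB*, with 3316 in the double deletion strain (limma log2 difference 1.71 ± 0.20 SE, adjusted p = 0.010). *cat1* (AN9339), a catalase gene, was at 178, 454 and 600 (1.55 ± 0.20, adjusted p = 0.014). *erg8* (AN2311), phosphomevalonate kinase of the pathway that leads to ergosterol, was at 126, 388 and 428 (1.69 ± 0.14, adjusted p = 0.0054). For these 3 genes the parent lay below both deletion strains by more than the deletion strains differed from each other.

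*met16* (AN4770), which in yeast encodes PAPS reductase, had 45.5, 285 and 153, and *ilv3* (AN6346), in yeast a dihydroxy-acid dehydratase, had 141, 325 and 301. *mdr1* (AN2300) with 50.2, 121 and 115 and *atrF* (AN6581) with 10.4, 35.1 and 28.3 are genes of ABC transporters. The bZIP transcription factor gene *atfB* (AN6849) was at 40.3, 95.5 and 82.1. *mdr1*, *ilv3*, *atfB* and *dbp9* lay close to the limit of the call, and these 4 of the 18 were not called under library totals or deposited values. The nonribosomal peptide synthetase gene *nrps1* (AN1242) rose from 2.89 to 25.6 and 51.2, *admA* (AN2810) from 3.91 to 85.3 and 54.9, and *aspf13* (AN6273), named after an allergen of *A. fumigatus*, from 11.9 to 74.0 and 61.8. The chitinase gene *chiA1* (AN8241) was at 6.74, 19.8 and 32.0 and the pectin methylesterase gene *pmeA* (AN3390) at 3.74, 16.1 and 15.8. *fmaG*, *aspf2*, *glpV* and *ptyA* made up the rest, of which *ptyA* did not pass limma (adjusted p = 0.073).

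Large differences were fewer among the lower genes. Of the 238, 62 had a mean log2 difference below -2 and 19 below -3. Among the 599 higher genes 206 were past 2 and 86 past 3. AN2578 differed most among genes above the limit in all libraries. Its parent level was 363 rescaled RPM, with 3.25 in Δ*cnaB* and 6.39 in the double deletion strain, so 112-fold and 56.8-fold lower (log2 -6.81, 95% exact binomial interval -7.07 to -6.55, and -5.83, -6.01 to -5.65, limma adjusted p = 0.0042). AN5540 was at 305, 8.13 and 7.91 (-5.23 and -5.27, limma adjusted p = 0.00031). Both deletion strains lay more than 30-fold below the parent in each case. AN5046 was at 136 in the parent and 1.79 in Δ*cnaB*, but at 20.0 in the double deletion strain, and with that spread it did not pass limma (adjusted p = 0.091).

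A pair of the 10 lowest genes have adjacent numbers and a symbol. *tmpA* (AN0055), a membrane flavoprotein gene that acts early in conidiation, was at 57.6, 2.40 and 4.04. *afeA* (AN0054) was at 347, 18.8 and 35.6. Both were lower without salt as well, *tmpA* at 35.2, 5.24 and 8.86 and *afeA* at 345, 80.1 and 125. AN8134, AN1540, AN7214, AN7539 and AN8136 completed the 10 with parent levels from 10.9 to 53.0. AN1540, at 19.2, 1.38 and 1.30 with salt, was at 3.82, 1.98 and 3.75 without it and was not called there. In 26 genes both deletion strains were at the limit. *cnaB* itself had the highest parent level of these, followed by AN2321 (4.78), AN2392 (4.73), AN2844 (4.6), AN8910 (3.8) and AN8155 (3.38).

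**Figure D3:**
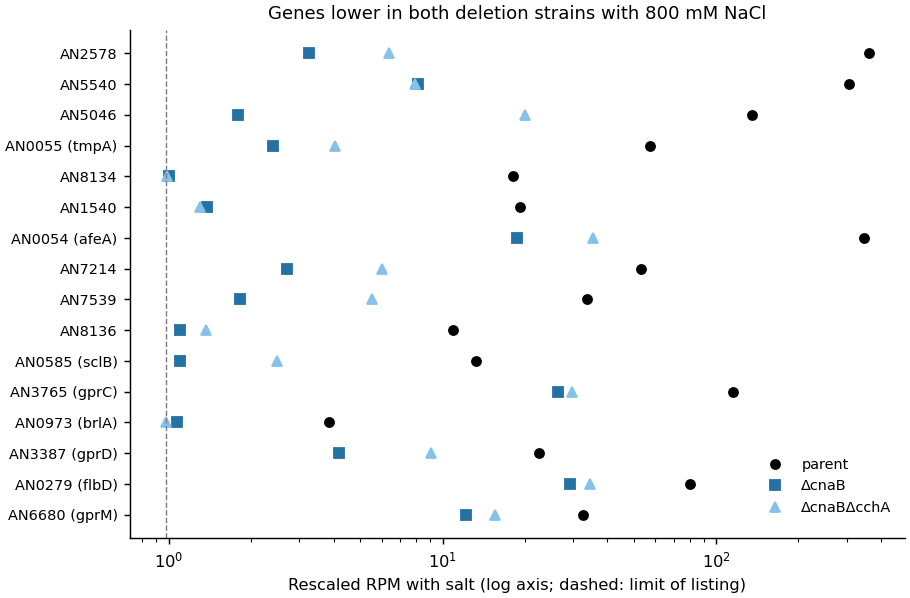
Rescaled RPM with 800 mM NaCl (log axis) of the 10 genes with the lowest mean log2 difference among genes above the limit of listing in all 3 libraries, and of 6 further genes with a symbol, with 1 library per strain (black circles parent, dark blue squares Δ*cnaB*, light blue triangles Δ*cnaB*Δ*cchA*; the dashed line is the limit of listing). In every line of the plot both deletion strains lie to the left of the parent. AN5046 shows the widest gap between the deletion strains.

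Some regulators of asexual spore formation were among the lower genes. *flbD* (AN0279), a Myb factor that acts upstream of *brlA*, was at 80.1 in the parent, 29.3 in Δ*cnaB*, with 34.7 in the double deletion strain (limma log2 difference -1.33 ± 0.18 SE, adjusted p = 0.016). *sclB* (AN0585), a transcription factor gene that promotes conidiation, was at 13.3, 1.10 and 2.48 (-3.01 ± 0.55, adjusted p = 0.031). *brlA* (AN0973), the central regulator of conidiation, was low throughout, at 3.84, 1.07 and listed at 0, and could not be tested. With *tmpA* these were 4 lower and 0 higher of 29 tested genes of sexual and asexual development, against 2.71% and 6.81% of all genes. The list was chosen by symbol, and its median log2 difference was -0.12 against 0.00 over all genes. Other members were not called, and of the 29 genes 12 in Δ*cnaB* and 13 in the double deletion strain lay above the parent. The conidiation gene *medA* was higher in both deletion strains, at 73.5, 115 and 115, inside the limit of the call. The hydrophobin gene *rodA* was at 1.24, 2.23 and 1.32, and *stuA*, a modifier of the conidiophore, at 252, 254 and 303. Without salt *sclB* and *tmpA* were lower too, while *flbD* (103, 45.4 and 70.1) was past the limit in Δ*cnaB* only.

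Among the called genes with a RefSeq symbol, 3 carry a gpr symbol, used for G protein-coupled receptors. They were chosen after their values were seen, and genes with such a symbol that were not called are not counted here. *gprC* (AN3765) was at 116, 26.4 and 29.8 (limma log2 difference -2.04 ± 0.17 SE, adjusted p = 0.0057) and *gprM* (AN6680) at 32.6, 12.1 and 15.5 (adjusted p = 0.036). *gprD* (AN3387) was at 22.5, 4.19 and 9.09 and did not pass limma (adjusted p = 0.073). The feruloyl esterase gene *faeB-2* (AN1772) was at 94.2 in the parent with salt and at 13.5 and 14.4 in the deletion strains (limma adjusted p = 0.0043), and without salt it was at 3.13, 2.91 and 2.85. For this gene the difference was seen where the parent level was high. Of 10 tested genes of siderophores and iron 2 were called lower and 0 higher, against 2.71% and 6.81% of all genes, with a median log2 difference of -0.39. They were the siderophore synthesis genes *sidH* (4.62, 1.97 and 2.09), which did not pass limma (adjusted p = 0.092), and *sidI* (2.09 in the parent, listed at 0 in both deletion strains), which could not be tested. *sidC* (19.9, 12.8 and 20.8), the synthetase gene of ferricrocin, was not called. *sit1* (AN5378), in yeast a siderophore transporter gene and no member of the list, was called lower at 11.7, 3.40 and 5.67 (limma adjusted p = 0.084). *glfB* (247, 110 and 102), *pxa1* (74.4, 30.0 and 32.1), *cdcA*, *sha1*, *amdR* and *fmaE* were the remaining lower genes with a symbol. Together 19 of the 759 (2.50%) were lower, against 2.71% of all genes, and these 19 stayed called under every scaling tried.

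Lower genes also had lower neighbours. Of 230 placed lower genes 64 (27.8%) had one beside them, against 5.32% of all placed genes. The run AN8134 to AN8138 had 5 of 5 genes lower, with sums of 441 in the parent, 100 in Δ*cnaB*, with 84.6 in the double deletion strain. Its largest member AN8138 was at 350, 90.2 and 75.3 with salt and at 1.60, 1.82 and 0 without it. The other members were lower in both treatments. In AN5067 to AN5070 (4 of 4) the sums were 171, 23.0 and 31.7, and in AN6433 to AN6439 (5 of 7) 55.4, 14.2 and 13.3.

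Many of the differences were present without salt. There 979 genes (11.2% of 8731 tested) were higher in both deletion strains and 426 (4.88%) were lower. Of the 599 genes higher with salt 364 were higher without it, 60.8% of the first list and 37.2% of the second. Of the 238 lower genes 91 were lower in both treatments, 38.2% and 21.4% of the lists. The salt and control comparisons share no library. Among the 554 higher genes also tested without salt the median log2 difference there was 1.61, and 70 lay within 0.5 of 0. Among 220 lower genes it was -1.0, with 52 within 0.5 of 0.

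**Figure D4:**
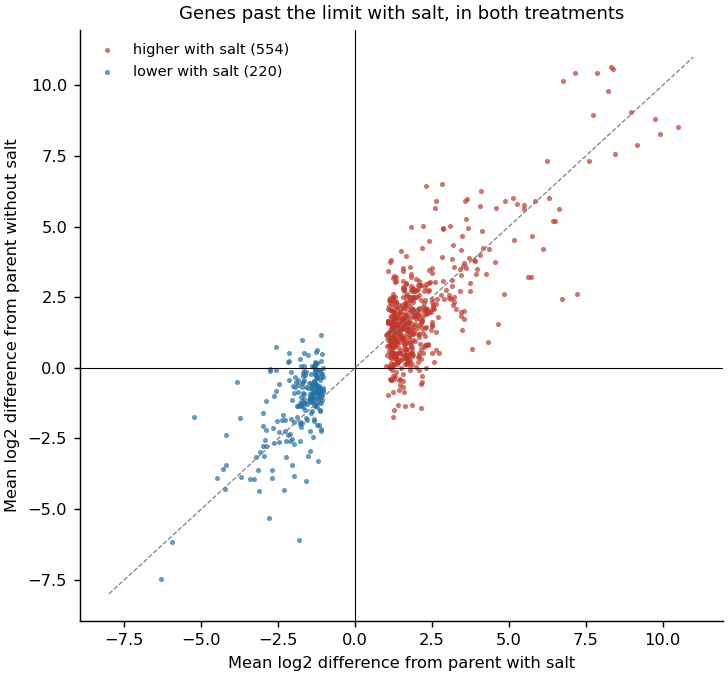
Mean log2 difference of the 2 deletion strains from the parent with salt (x axis) and without salt (y axis), for the 554 higher (red) and 220 lower (blue) genes called with salt and tested in both treatments. The dashed line marks equal differences. Most red points lie above 0 on the y axis, and 7 called genes passed the limit in the opposite direction without salt.

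How many genes differed between treatments by a test of the difference itself depends on whether the libraries are paired by strain. In simulated data with fixed strain differences, the fit without pairing recovered 0 of 100 genes changed by a log2 of 1.5. Those simulated differences were the same in both treatments, while the real gap between the deletion strains correlated at r = 0.39. The simulation therefore cannot decide which fit suits these data. A gene that did not pass the fit without pairing is not shown to differ equally in both treatments. In a limma fit over all 6 libraries in 4 groups (2 residual degrees of freedom, chosen after the data had been seen) 13 of 7798 genes (0.167%) had an adjusted p under 0.05 for that term, and 1535 had an unadjusted p under 0.05. With strain as a block, so that each salt library is set against the control library of its own strain (1 residual degree of freedom, also added later), 676 genes (8.67%) passed, the 13 among them. Of the higher genes 421 entered the blocked fit and 69 passed, 38 with a difference further above the parent with salt. Of 165 lower genes 25 passed, 22 with a difference further below the parent with salt. All these genes were called by their difference with salt, which is part of the value tested. The number and direction of their passes are therefore no separate result. In the fit without the block 4 higher and 4 lower genes passed, and the values below are from that fit. AN7897 of the longest run was one of them, and the genes named next were chosen after their values were seen. AN10218 was at 12.2 in the parent, 277 in Δ*cnaB*, with 213 in the double deletion strain with salt and at 15.4, 30.7 and 27.2 without it (limma log2 difference between treatments 3.41 ± 0.31 SE, adjusted p = 0.047). The neighbours AN6940 and AN6941 differed less with salt. AN6940 was at 147, 298 and 325 with salt and at 31.1, 365 and 307 without. AN6941 was at 33.4, 74.6 and 77.0 against 3.17, 47.7 and 41.6. In both genes the parent level was the value that changed most as a ratio, on scales set apart for each treatment. AN8218 was at 731, 189 and 223 with salt and at 183, 2.51 and 2.81 without (limma 4.28 ± 0.26, adjusted p = 0.027).

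The other 3 lower genes had the other sign without salt. AN3117 was at 530, 90.6 and 87.2 with salt and at 62.4, 89.9 and 118 without it (limma -3.30 ± 0.28, adjusted p = 0.047). AN3114 was at 194, 87.4 and 91.8 with salt and at 57.2, 120 and 135 without (-2.27 ± 0.22), and AN8741 at 125, 34.9 and 41.6 against 21.9, 40.8 and 47.3 (-2.71 ± 0.28). In all 3 the parent was above both deletion strains with salt and below both without it.

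Ribosome biogenesis genes stood differently in the 2 treatments. This list of 27 genes was put together by symbol after the symbols had been seen. With salt the median log2 difference was 0.89 in Δ*cnaB*, where 25 of 27 genes were above 0, and 0.22 in Δ*cnaB*Δ*cchA*, where 22 were above 0, but in the double deletion strain it turned to -0.04 with 12 of 27 above 0 under library totals, and to -0.03 under deposited values. In Δ*cnaB* it stayed above 0 under all scalings (0.61 under library totals). Only *dbp9* (AN6374), a helicase gene at 4.74, 12.7 and 10.2, was called higher, 1 of 27 against 6.81% of all genes, and it did not pass limma (adjusted p = 0.052). Without salt the medians were -1.13 and -1.37, all 27 genes lay below 0 in both deletion strains under every scaling, and 20 were called lower. There *dbp9* was at 45.2, 18.3 and 14.4. The summed level of the list in the parent was 281 with salt and 2247 without it, and in Δ*cnaB* 459 and 1112. Each treatment was on its own scale. In the fit over 6 libraries the difference between treatments had an unadjusted p under 0.05 in 25 of the 27 genes and an adjusted p under 0.05 in 0, with the lowest at 0.073. With strain as a block the call changed, as 21 of the 27 passed limma, all of them toward a higher difference with salt, against 8.67% of all genes in either direction. For *dbp9* this value was 2.74 ± 0.27 SE (limma adjusted p = 0.017).

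**Figure D5:**
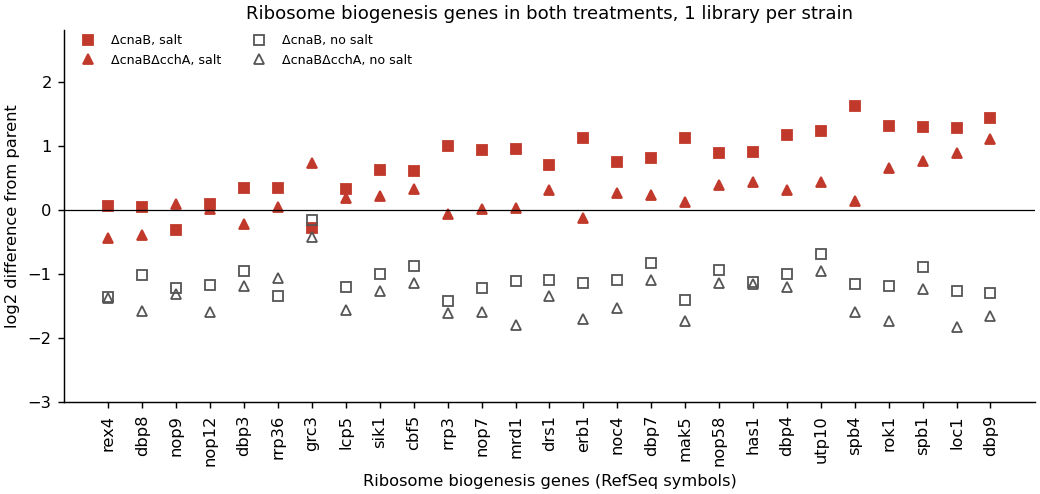
Log2 difference from the parent of 27 ribosome biogenesis genes, with salt (filled red) and without salt (open), in Δ*cnaB* (squares) and Δ*cnaB*Δ*cchA* (triangles), 1 library per strain and treatment. Open symbols all lie below 0. Filled squares lie above 0 in 25 genes. Filled triangles lie above 0 in 22 genes after TMM, as plotted, and in 12 under library totals.

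Lists for the pathways nearest to calcineurin could be read only in part, since symbols matched 3 of 9 calcineurin genes, 6 of 10 calcium channels and pumps, 9 of 20 genes of the high osmolarity (HOG) pathway and 0 of 13 sodium pumps and cation regulators. Of the 3 calcineurin genes the deleted *cnaB* was called and *crzA*, at 75.2, 61.4 and 73.1, was not. Of the 6 genes of calcium channels and pumps 0 were called, against 6.81% and 2.71% of all genes, and the deleted *cchA* was lower in the double deletion strain alone. The calcium pump gene *pmcA* (AN1189) was at 17.1, 13.7 and 11.1 with salt and at 98.8, 10.4 and 13.4 without it, and *pmcB* (AN4920) was at 27.4, 33.1 and 25.5 with salt and at 21.2, 5.67 and 8.71 without it. Both were called lower without salt, and the difference between treatments did not pass the limma fit over 6 libraries (adjusted p = 0.073 and 0.14). With strain as a block *pmcA* passed and *pmcB* did not (limma adjusted p = 0.020 and 0.073). Of the 9 HOG pathway genes 0 were called, against 6.81% and 2.71% of all genes, with a median log2 difference of 0.32. Under library totals the HOG medians were 0.04 in Δ*cnaB* and 0.05 in the double deletion strain. *sakA* (AN1017), the stress kinase of this pathway, was at 979, 1322 and 1336 (limma adjusted p = 0.12) and its transcription factor gene *atfA* (AN2911) at 357, 449 and 441.

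Other lists held few called genes as well. In lists this short, that is close to what the shares of all genes (6.81% higher and 2.71% lower) would give. In some of them most genes lay on one side of the parent. The proteasome list had 0 of 16 genes called and a median of 0.00. Polarity and septation genes had 0 of 12 called and a median of -0.20, with 11 below the parent in Δ*cnaB* and 9 in the double deletion strain. Peroxisome genes had 0 of 12 called and a median of -0.33, with 10 below the parent in Δ*cnaB* and 11 in the double deletion strain. Among 9 heat shock and unfolded protein genes and 7 chitin and glucan synthesis genes 0 were called. The first list had a median of -0.16 in Δ*cnaB*, with 3 of 9 genes above the parent. In the double deletion strain it was 0.19, with 5 above. *bipA* of this list was lower, at 255, 107 and 141, while *hsp70* was at 1262, 1268 and 2046 and *hsp90* at 503, 402 and 770. The second had a median of 0.43, with 6 of 7 genes above the parent in Δ*cnaB* and 7 in the double deletion strain. Under library totals these counts were 4 and 6. Ergosterol synthesis had 1 of 17 called (*erg8*) and a median of 0.01, and cell wall enzymes 1 higher (*chiA1*) and 1 lower (*glfB*) of 30. Of the strain marker genes 0 of 4 were called, with *pyrG* at 19.3, 21.0 and 21.7 and *riboB* at 54.8, 38.8 and 63.7. *pyroA* at 49.9, 84.2 and 101 was higher by limma (adjusted p = 0.033), and *argB* at 351, 218 and 227 was lower (limma adjusted p = 0.034).

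The study's candidate genes for growth on salt and its PCR genes were read in the same way. The study chose its candidates by their induction with salt within each strain, while here levels with salt are set against the parent. The values below are therefore no check of that choice. Of its 6 transporter and metabolic candidates, AN8585 (3.31 in the parent, 35.9 in Δ*cnaB*, 29.1 in Δ*cnaB*Δ*cchA*), AN10499 (9.25, 70.4 and 37.9) and AN2638 (17.4, 114 and 59.8) were higher, with limma adjusted p of 0.0048, 0.020 and 0.025. All 3 were listed at 0 in every strain without salt, as were the candidates AN2841 and AN3210 named below. AN9168 (RefSeq symbol *mfsA*), a putative sugar transporter gene, was at 5526 in the parent, 2844 and 2917, just inside the limit with log2 differences of -0.96 and -0.92, although it passed limma as lower (adjusted p = 0.047). AN2841, of the major facilitator family, was at 29.1, 14.2 and 17.3, and AN3210 at 21.4, 24.4 and 35.0. For AN10499 and AN2638 the double deletion strain lay between the parent and Δ*cnaB*. Of the other candidates AN6718 (18.3, 64.1 and 60.3) and AN0531 were higher, and AN5593, AN8035 and AN9528 were not called. Of the 8 PCR genes AN7893, AN7902 and AN7903 were higher, and *aclA* (AN2435, ATP citrate lyase), AN8907, AN8815, AN3085 and AN6881 were not called.

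Between the 2 deletion strains 249 genes (2.83% of 8797) were more than 1 apart on the log2 scale, 67 with Δ*cnaB* and 182 with the double deletion strain higher, which no test could judge with 1 library each. Only 5 genes passed the limit in opposite directions, and only *catA* (AN8637) and AN9283 differed between them by more than 5 on the log2 scale. *catA*, a catalase gene of conidia, was at 1463 in the parent, 3100 in Δ*cnaB*, with 10.9 in the double deletion strain, so 2.12-fold higher in one deletion strain and 134-fold lower in the other. Without salt it was low, at 3.82, 27.4 and listed at 0. AN9283 was listed at 0 in the parent, at 3.96 in Δ*cnaB* and at 2656 in the double deletion strain. It therefore counts among the 599 higher genes through a value near the limit in Δ*cnaB*. Whether such gaps come from the loss of *cchA* or from the single cultures cannot be told apart with 1 library each.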

How the data were processed

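Strain and treatment came from the sample labels and the study's methods. Of 6 libraries, the 3 with salt were compared and the 3 without it served as a second comparison. Per the labels and the methods, the authors used TopHat on assembly ASM14920v1 and RSEM for the gene counts, which they scaled by TMM within each strain. The deposited signal is TMM-scaled RPM, that is, gene counts divided by a size factor, with values under 1 listed as 0. No deposited column held values of other samples. Nonzero values were all whole multiples of one step (within 0.05 reads), so reads per gene were recovered, and used for 95% exact (Clopper-Pearson) intervals only. These reads number more than the study states as sequenced, so they may not be independent molecules.

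The 3 libraries of each treatment were rescaled together by TMM (trims of 30% and 5%). Genes without a value counted as 0, and values below the limit of listing were raised to it, with no constant added. Genes at the limit in all 3 libraries were left out. Calls required a log2 difference over 1 in both deletion strains. limma 3.58.1 in R 4.3.3 (two-sided, trend, Benjamini-Hochberg) compared the strains lacking *cnaB* with the parent, over genes above the limit in all libraries. The test for a difference between treatments, in fits over 6 libraries in 4 groups and with strain as a block, was added after seeing the data. Salt and control libraries pair by strain, per the labels. The gap between the deletion strains correlated between treatments (r = 0.39 across 7798 genes, which are not replicates). All fits were tested on simulated data, in which strains differed by a fixed amount for the test of a difference between treatments. There the fit in 4 groups recovered 0 of 100 genes changed by a log2 of 1.5 and 0 of 100 changed by 3. The fit with strain as a block recovered 100 and 97, with 11 false calls. The simulated strain differences were equal in both treatments, so these rates need not hold for the real libraries. Alternatives were other scalings, constants, filters and fold limits, and leaving out a deletion strain.

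Named genes were the deleted and marker genes, the genes the study names, and the 10 highest and 10 lowest genes above the limit. They also included 6 at the limit on each side, runs of 4 or more neighbours, and called genes with a RefSeq symbol. The RefSeq assembly ASM1142v1 matched 10029 of 10957 identifiers and gave 778 symbols. Its gene order was used to find direct neighbours. Comparison, lists and named genes were chosen with earlier results of these data known. Lists by symbol were made after the symbols had been seen.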

Additional observations from a re-analysis of the deposited data

Results flagged for a closer look

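For 8 genes called with salt, the difference between deletion strains and parent was itself different with and without salt (limma over 6 libraries in 4 groups, adjusted p under 0.05). With strain as a block these 8 also passed, along with other called genes (94 in all). The values below are the log2 difference with salt minus that without it. Among higher genes it was 3.4071 for AN10218, -2.3444 for AN6940, -2.6287 for AN6941 and -2.5735 for AN7897. AN7897 belongs to the run from AN7891 to AN7904. With salt it was at 1.84, 408 and 443 rescaled RPM in the parent, Δ*cnaB* and the double deletion strain. Without salt it was at 2.07, 3052 and 2669. Its levels in the strains lacking *cnaB* were thus lower with salt, on scales set apart for each treatment. Among lower genes the value was -2.265 for AN3114, -3.2996 for AN3117, -2.7113 for AN8741 and 4.2797 for AN8218. Each parent has 1 library per treatment and is assumed to vary like the other strains.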

How the results depend on the processing

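Counts moved with the scaling, the filter, the fold limit and the block. Under library totals 503 genes were lower in both deletion strains and 173 of them also without salt, Δ*cnaB* had 553 higher and 866 lower genes, Δ*cnaB*Δ*cchA* had 680 lower, and limma called 438 higher and 889 lower. With the values as deposited there were 470 lower genes (178 also without salt), 784 lower in Δ*cnaB*, 669 in Δ*cnaB*Δ*cchA* and 954 lower by limma. The 238 lower genes stayed called under both scalings, while 414 and 433 of the 599 higher genes did. Without the filter limma called 0 higher and 0 lower genes (1355 and 1059 at an unadjusted p under 0.05), and limma over all 6 libraries called 188 lower, from fewer genes tested. By its construction a log2 limit of 2 left fewer genes, namely 152 higher and 47 lower (99 and 25 in both treatments), 226 and 77 in Δ*cnaB*, and 203 and 60 in Δ*cnaB*Δ*cchA*. Leaving out one deletion strain, so that the other decided alone, gave 832 (without Δ*cnaB*Δ*cchA*) to 835 higher and 320 (without Δ*cnaB*) to 444 lower genes, and 409 to 471 and 101 to 115 in both treatments. The other counts stayed within 1.5 times. The balance of higher to lower calls turned under library totals and deposited values, and the ribosome biogenesis median in the double deletion strain turned from 0.22 to -0.04 and -0.03. The cause was not tested where none is given.

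limma without one deletion library has no residual degrees of freedom and gave no value. The planned count tests with edgeR and DESeq2 were not run, since the deposited values are not counts, and the planned promoter search was not run. Within a treatment each strain has 1 library, so the salt comparison has no pairs. Salt and control libraries pair by strain, and with strain as a replicate block the difference between treatments passed in 676 genes in place of 13, with 13 passing in both. The limit of listing, at 38 to 46 reads, and not depth, sets what is seen of weak genes.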
